A study of Mus musculus with 16 samples.

Results

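This account follows 31 liver genes of glucose metabolism through ethinylestradiol treatment and through a ligand of the constitutive androstane receptor. They cover glucose transport, glycolysis, gluconeogenesis, glycogen, fructose and polyol metabolism and the pentose phosphate pathway, together with Rgs16, a glucose-responsive regulator of G protein signalling. The genes were taken as a list of symbols by their place in these pathways, with no threshold on a measured value. This list and the other gene lists below were chosen with earlier results of these data known. Their shares of called genes, set beside those of all genes, are therefore a description and not a test. All 31 were present among the 13006 genes of the table, and all 31 passed the filter on low counts that left 12918 genes for testing.

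Hepatocytes take up glucose through a low-affinity carrier and phosphorylate it, so that uptake follows the portal glucose level. The glucose 6-phosphate formed can be stored as glycogen, broken down to pyruvate, or oxidised in the pentose phosphate pathway, which supplies NADPH and ribose. In fasting the liver runs the opposite way, and glucose 6-phosphate from glycogen or from gluconeogenesis is carried into the endoplasmic reticulum and hydrolysed to free glucose. Fructose and sorbitol enter the same pathways past the main control step of glycolysis. High intracellular sugar activates the transcription factor ChREBP, encoded by Mlxipl, and ChREBP acts on carbohydrate response elements such as that of the liver pyruvate kinase gene.

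Polyadenylated RNA from liver was sequenced in mice of the genotype Humanized PXR-CAR-CYP3A4/3A7, which all groups shared, with 4 libraries in each of 4 groups. EM mice received ethinylestradiol (EE), a synthetic estrogen used to induce cholestasis, at 10 mg/kg under the skin for 7 days, and MI763F, a ligand of the constitutive androstane receptor (CAR) named by a code, by gavage on 6 days, starting on day 2, at a dose of 2.5 mg/kg. EV mice received EE without MI763F, CM mice MI763F without EE, and CV mice neither drug but the propylene glycol vehicle of EE. The labels do not say whether EV and CV mice received the oral vehicle of MI763F, and the sources used here give no sex, age or feeding state. Since no label links a library to one animal, the p-values reflect spread among these samples, which may in part be technical.

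Library totals ran from 14115384 to 21473227 estimated counts, and levels are given as CPM, counts scaled to library size with TMM composition factors. These factors were 1.1 to 1.23 in the 8 libraries with EE and 0.833 to 0.91 in the 8 without, so the choice of scaling moves every EE comparison. With plain library totals in place of the factors, the median of all genes shifted by 0.48 on the log2 scale for EV vs CV and by 0.37 for EM vs CM, and a change smaller than this can alter its sign. The second principal component set CM replicate 2 (-58.9) apart from the remaining CM replicates (-16.1 to -7.98). The same component set CV replicates 1 and 2 (35.6 and 45.2) apart from CV replicates 3 and 4 (1.13 and 1.47). On the first, EM replicate 1 (62.6) lay closer to the EV libraries (66.7 to 75.4) than the other EM libraries did (37.1 to 46.7). The summed level of 12 hepatocyte markers, Alb among them, ran from 41812 to 59380 CPM in EM and 37039 to 45732 in EV libraries, against 95095 to 121279 in CM and 99608 to 127901 in CV libraries. No marker of this list was at 0 throughout CV. Macrophage markers summed to 1959 to 3255 CPM in EM and 2394 to 2782 in EV libraries, against 414 to 836 in CM and 405 to 1012 in CV libraries. In whole liver, fewer cells of a type and less RNA per cell cannot be told apart.

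Promoter sequences are shown for 4 of the genes. Rgs16 and G6pdx had the largest fall and the largest rise of the 31 with EE, Pklr has the one carbohydrate response element found among these genes, and Khk is shown as an example of the E-box core, which genes with and without a call in EV vs CV hold. Each window runs from 250 bases before to 50 bases after a RefSeq transcription start on build GRCm38.p6, an earlier build than the one the counts were made on, and is written 5′ to 3′ on the gene's own strand. Capitals mark the motifs that were found.
Pklr, chr3:89136373-89136672, plus strand: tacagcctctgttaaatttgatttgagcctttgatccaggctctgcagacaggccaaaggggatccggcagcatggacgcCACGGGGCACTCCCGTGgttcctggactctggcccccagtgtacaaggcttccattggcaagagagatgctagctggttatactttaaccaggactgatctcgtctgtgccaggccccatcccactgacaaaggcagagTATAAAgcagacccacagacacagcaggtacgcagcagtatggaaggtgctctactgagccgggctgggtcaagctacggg
Khk, chr5:30921309-30921608, plus strand: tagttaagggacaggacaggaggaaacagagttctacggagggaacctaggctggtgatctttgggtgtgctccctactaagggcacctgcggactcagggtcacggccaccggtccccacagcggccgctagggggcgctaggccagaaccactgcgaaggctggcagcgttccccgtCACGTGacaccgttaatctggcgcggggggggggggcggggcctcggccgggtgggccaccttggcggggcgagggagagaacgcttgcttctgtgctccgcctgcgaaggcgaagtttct
Rgs16, chr1:153740103-153740402, plus strand: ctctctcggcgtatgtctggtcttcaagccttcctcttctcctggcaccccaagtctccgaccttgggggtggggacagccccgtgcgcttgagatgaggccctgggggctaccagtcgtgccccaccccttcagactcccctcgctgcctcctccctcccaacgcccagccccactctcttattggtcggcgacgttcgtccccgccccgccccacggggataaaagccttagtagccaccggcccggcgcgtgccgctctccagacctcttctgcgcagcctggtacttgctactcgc
G6pdx, chrX:74428831-74429130, minus strand: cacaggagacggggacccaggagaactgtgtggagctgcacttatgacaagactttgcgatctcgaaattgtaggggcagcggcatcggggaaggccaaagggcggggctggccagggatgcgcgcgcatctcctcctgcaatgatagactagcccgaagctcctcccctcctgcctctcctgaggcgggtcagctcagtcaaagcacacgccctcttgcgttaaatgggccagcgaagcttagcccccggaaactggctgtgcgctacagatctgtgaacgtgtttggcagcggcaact

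In the Pklr window the capitals mark a carbohydrate response element at position -170 and a TATA box at -31, counted from the start. In the Khk window they mark the E-box core CACGTG at -71. No searched motif was found in the windows of Rgs16 and G6pdx, which says only that these letters are absent there. Of the 31 genes, 29 (all but Gys2 and Ppp1r3b) matched the RefSeq table, with 42 windows, and of the 2 windows of Pklr the one with the motifs is shown. The carbohydrate response element, a pair of E-box-like sequences with a spacer, was searched after the expression values were known. It was held by 0.119% of all 32851 windows and among the 29 genes by Pklr only. The E-box core stood in 7.15% of all windows and in 4 of the 42, those of Khk and Pcx, which fell in EV vs CV, and of Ldha and Ppp1r3c, which were not called there. The TATA box TATAAA stood in 13.6% of all windows and in those of G6pc, Pfkfb1, Pklr and Slc37a4. The cyclic AMP response element TGACGTCA stood in 1.79% of all windows and in that of Ldha. The FOXO core TGTTTAC (3.65%), the palindromic estrogen response element (0.07%) and the palindromic HNF1 site (0.00913%) were in none of the 42 windows. Both strands were searched, and no motifs overlapped in the windows printed.

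With EE alone, the glucose carrier gene and most glycogen, fructose and sorbitol genes were lower. The pentose phosphate genes G6pdx and Pgd were higher, and the end steps of glycolysis moved apart. Of the 31 genes, 15 fell and 8 rose in EV against CV (quasi-likelihood test of edgeR, p-values adjusted over all genes by Benjamini and Hochberg), which is 74.2% of them, where 50.4% of all genes tested were called (24.9% down, 25.5% up). Their median log2 fold change was -0.17, against 0 for all genes. With library totals 11 fell and 13 rose. All 8 rises and 11 of the 15 falls were called under both scalings, and the falls of Pfkfb1, Fbp1, Gbe1 and Tkfc rested on the composition factors. In mice given MI763F the same contrast, EM against CM, used no library of EV or CV. There 12 of the 31 fell and 6 rose (58.1%, against 38.1% of all genes, 18.6% down and 19.4% up), or 8 and 13 with library totals. The median was -0.23. The groups did not overlap for 21 of the 31 genes in EV vs CV (47.3% of all genes), as they did not for 15 of them in EM vs CM (35.4% of all genes).

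**Figure D1:**
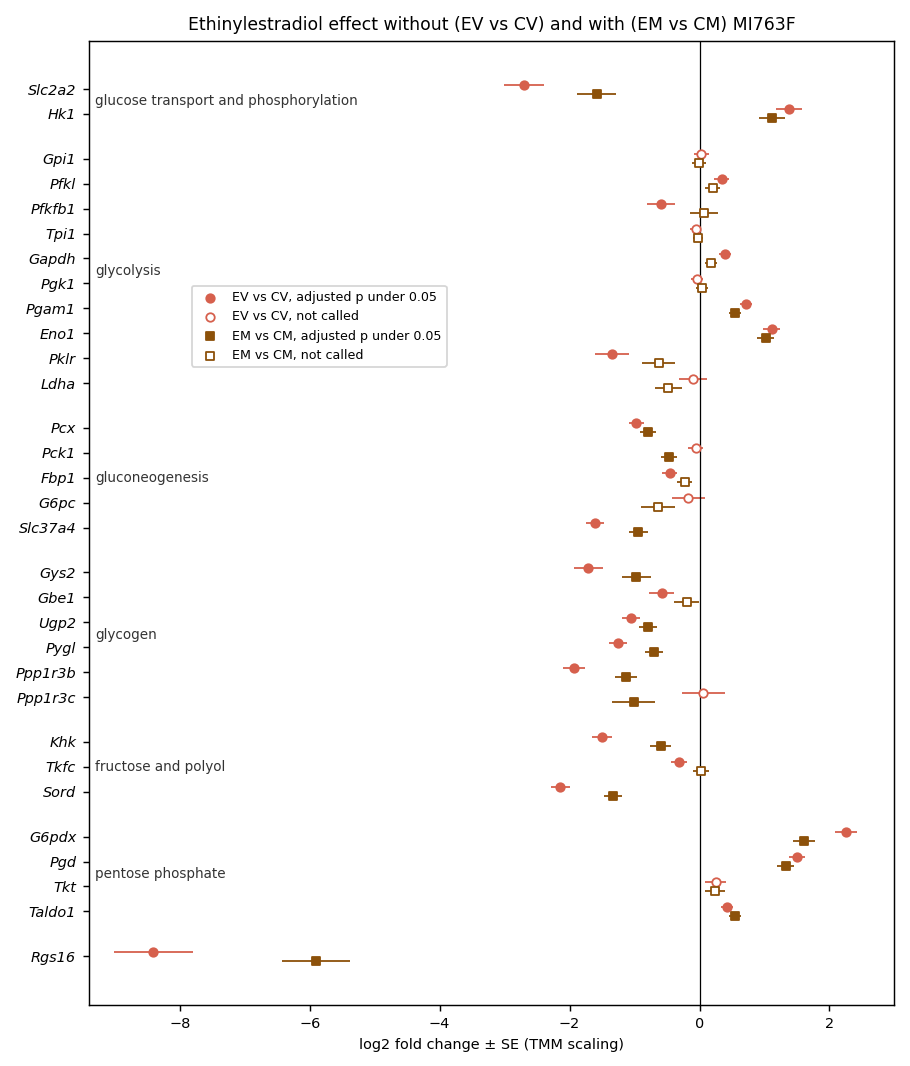
Log2 fold change ± SE (x axis) of each of the 31 genes (y axis, grouped by role) in EV vs CV (circles) and EM vs CM (squares); filled symbols passed the test at an adjusted p of 0.05. Glycogen genes other than Ppp1r3c lie left of 0 in both comparisons, pentose phosphate genes right of it, and Rgs16 lies farthest left at -8.41 and -5.90.

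Glucose entry showed opposite changes in its carrier and in a hexokinase. Slc2a2 encodes GLUT2, the carrier through which hepatocytes exchange glucose with blood. It stood at 18.9, 31.8, 43.2 and 28.3 CPM in EV replicates 1 to 4, against 168, 190.4, 198 and 236 CPM in CV. In EM libraries it stood at 38.2, 54.9, 94.5 and 69.8 CPM, against 208, 124, 162 and 274 CPM in CM. Neither pair of groups overlapped, and EV kept 15.4% of the CV mean (log2 fold change -2.70 ± 0.31, adjusted p = 5.5e-06) and EM 33.5% of the CM mean (-1.58 ± 0.3, adjusted p = 0.000778). Hk1, the high-affinity hexokinase of most other tissues, was low in every library. It had 4.69, 5.54, 5.07 and 5.1 CPM in EV, against 1.49, 2.06, 1.92 and 2.36 CPM in CV. The EM libraries held 4.43, 3.96, 4.35 and 3.65 CPM, against 1.28, 2.69, 1.77 and 1.79 CPM in CM. All libraries with EE lay above all without (1.37 ± 0.2, adjusted p = 4.76e-05 in EV vs CV, 1.12 ± 0.2, adjusted p = 0.000511 in EM vs CM). These values rest on 396 and 314 estimated counts over the EV and EM groups, against 116 each over the CM and CV groups.

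Of the 10 glycolysis genes, 4 rose and 2 fell in EV vs CV (60% called, against 50.4% of all genes). In EM vs CM 2 rose and none fell (20% called, against 38.1% of all genes). The enolase gene Eno1 had 761, 817, 609 and 679 CPM in EV, against 308, 334, 307 and 376 CPM in CV, and 585.2, 829, 682 and 642 CPM in EM, against 303, 342, 308 and 398 CPM in CM. Its levels with EE were 216% of the CV mean and 203% of the CM mean, with no overlap (1.11 ± 0.13, adjusted p = 4.47e-06; 1.02 ± 0.13, adjusted p = 2.28e-05). The neighbouring step, phosphoglycerate mutase Pgam1, also rose in both comparisons (0.72 ± 0.093, adjusted p = 1.4e-05; 0.54 ± 0.093, adjusted p = 0.000326). Gapdh averaged 2118 ± 90 CPM in EV and 1613 ± 130 CPM in CV (SD, n = 4 each) and rose by 0.39 ± 0.088 (adjusted p = 0.00172), but in EM vs CM its 0.18 ± 0.088 did not pass. Pfkl, the liver phosphofructokinase, rose by 0.34 ± 0.12 (adjusted p = 0.0331) with overlapping groups, a call lost without CV replicates 1 or 2 or EV replicates 1 or 2 (highest adjusted p = 0.137). That call was also lost with replicate number as a block (adjusted p = 0.0616) and with only the groups compared in the fit (adjusted p = 0.0915). Gpi1 (0.03 ± 0.11), Tpi1 (-0.06 ± 0.079), Pgk1 (-0.04 ± 0.094) and the lactate dehydrogenase gene Ldha (-0.10 ± 0.21) did not pass. Gapdh, Tpi1, Pgk1, Pgam1, Eno1 and Ldha have near-identical processed copies in the mouse genome, so the assignment of their reads is uncertain.

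The last step of glycolysis went the other way. Pklr encodes the pyruvate kinase of liver and red cells, and its promoter window is the one with the carbohydrate response element. It had 41.2, 45, 46.7 and 42.1 CPM in EV, against 113, 83.7, 115 and 135 CPM in CV. The EV libraries held 39% of the CV mean and lay below every CV library (-1.35 ± 0.26, adjusted p = 0.000523). With both drugs the level was 57.4, 57.4, 76.8 and 53.6 CPM, against 87.5, 50.7, 80.3 and 159.9 CPM in CM, where the groups overlapped through CM replicate 2 and the difference did not pass (-0.63 ± 0.26, adjusted p = 0.0671). Without CM replicate 2 it was -0.83 (adjusted p = 0.00665) and without EM replicate 3 it was -0.75 (adjusted p = 0.0494). Pfkfb1, the bifunctional enzyme that sets the level of fructose 2,6-bisphosphate, fell in EV vs CV by 0.59 on the log2 scale (adjusted p = 0.0339). That call was lost without CV replicates 2 or 3 or EV replicates 1 or 2 (highest adjusted p = 0.11), and EM vs CM gave 0.07 ± 0.22.

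Of the 5 gluconeogenic genes 3 fell in each comparison (60%, where 24.9% and 18.6% of all genes fell). These were Slc37a4 and Pcx in both, Fbp1 in EV vs CV and Pck1 in EM vs CM. Slc37a4, the transporter that carries glucose 6-phosphate into the endoplasmic reticulum, had 56, 62.7, 64.1 and 61.1 CPM in EV, against 180.2, 209.9, 175 and 181 CPM in CV. EM replicates 1 to 4 gave 55.7, 66.8, 81.3 and 93.3 CPM, against 122, 129.9, 142 and 174 CPM in CM. Neither pair overlapped (-1.61 ± 0.14, adjusted p = 4.13e-07; -0.94 ± 0.14, adjusted p = 0.000116). Pyruvate carboxylase Pcx, which makes oxaloacetate, averaged 102 ± 6.2 CPM in EV and 201 ± 26 CPM in CV, and it fell in both comparisons (-0.97 ± 0.12, adjusted p = 6.64e-06; -0.79 ± 0.12, adjusted p = 9.35e-05). Fbp1, the fructose bisphosphatase, fell by 0.46 on the log2 scale in EV vs CV (adjusted p = 0.00558), a difference that library totals set at 0.02, and its -0.23 ± 0.12 in EM vs CM did not pass.

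Pck1 and G6pc, which encode the hormone-regulated enzymes phosphoenolpyruvate carboxykinase and glucose 6-phosphatase, did not pass in EV vs CV. Pck1 had 2240.0, 2204, 2323 and 2368 CPM in EV, against 2027, 2851, 1896 and 2755 CPM in CV (-0.06 ± 0.12, adjusted p = 0.71), and library totals gave 0.42 (adjusted p = 0.0111). The 4 EV values lay inside the CV range. Levels in EM were 1983, 2234, 2094 and 2108 CPM, all below the 2579, 2856, 2925 and 3340.0 CPM of CM (-0.47 ± 0.12, adjusted p = 0.00654; with library totals -0.10, adjusted p = 0.534). G6pc had 104, 149, 180.2 and 205 CPM in EV, against 173, 223, 168 and 156 CPM in CV, with overlapping groups (-0.17 ± 0.26, adjusted p = 0.611). With MI763F and EE it stood at 231, 166, 259.9 and 162 CPM, against 243, 318, 497 and 221 CPM in CM (-0.64 ± 0.26, adjusted p = 0.0622). That difference was called by DESeq2 (-0.65, adjusted p = 0.031) and without any one of CM replicates 1 or 4, EM replicate 3 or EV replicate 1 (log2 fold changes of -0.75, -0.79, -0.78 and -0.65).

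**Figure D2:**
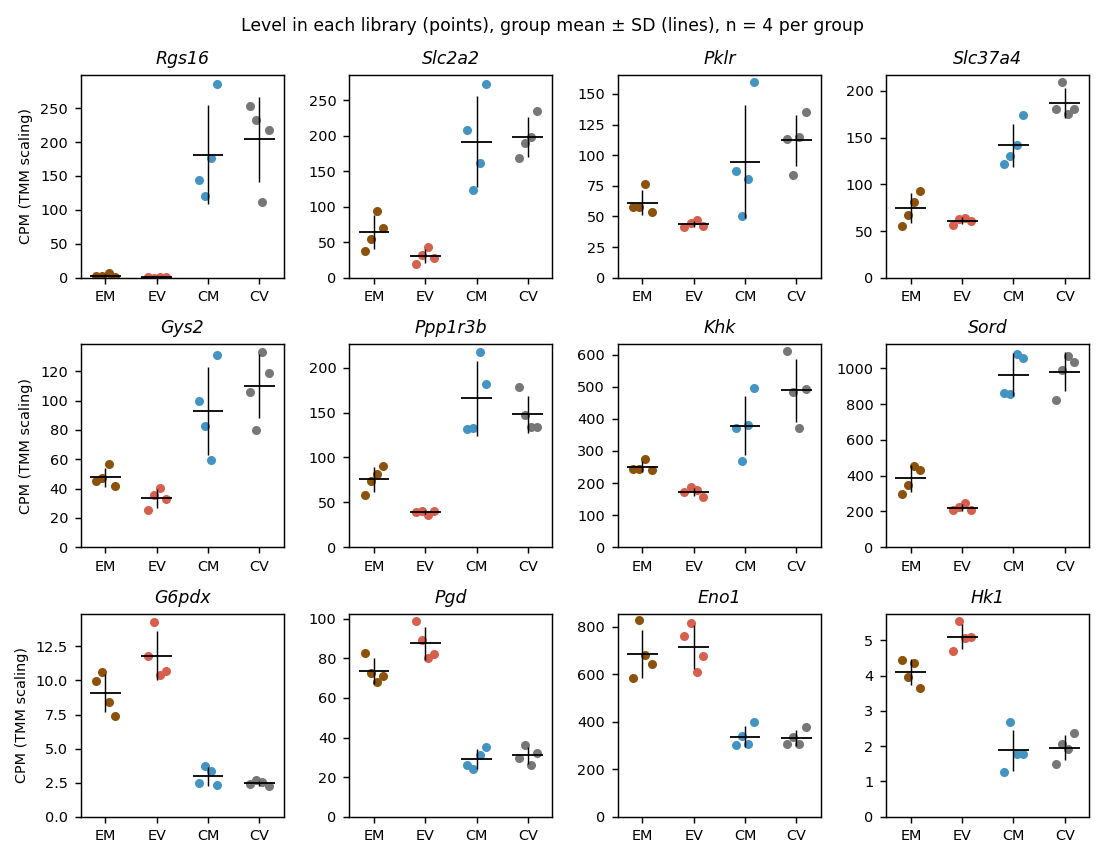
TMM-scaled CPM (y axis, from 0) of 12 of the genes in each library (points) of the groups EM, EV, CM and CV (x axis), with group mean ± SD (lines, n = 4). EM and EV libraries lie apart from CM and CV libraries in every panel but those of Pklr, where CM replicate 2 (50.7 CPM) lies below the EM range of 53.6 to 76.8 CPM, and Khk, where EM replicate 3 (274 CPM) lies just above CM replicate 2 (270.0 CPM).

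Glycogen synthesis and breakdown genes were lower together with EE. In each of the 2 comparisons 5 of the 6 genes fell (83.3%, where 24.9% and 18.6% of all genes fell). The liver glycogen synthase gene Gys2 had 25.2, 35.4, 40.3 and 32.8 CPM in EV, against 106, 80.3, 133 and 119 CPM in CV. The 4 EM values were 44.9, 47.2, 56.7 and 42.1 CPM, against 99.7, 82.6, 59.6 and 131 CPM in CM, where the lowest CM library (59.6) lay just above the highest EM library (56.7). EV held 30.4% of the CV mean (-1.71 ± 0.22, adjusted p = 1.29e-05) and EM 51.2% of the CM mean (-0.97 ± 0.22, adjusted p = 0.00242). The liver phosphorylase gene Pygl, which releases glucose from glycogen, had 104, 111, 109 and 96.5 CPM in EV, against 224, 273, 249.6 and 252 CPM in CV. The EM libraries held 114, 138, 183 and 150.0 CPM, against 183, 251, 237 and 281 CPM in CM, where EM replicate 3 stood level with CM replicate 1. It fell in both (-1.25 ± 0.14, adjusted p = 3.59e-06; -0.70 ± 0.14, adjusted p = 0.00101), but library totals ended the call in EM vs CM (-0.33, adjusted p = 0.067). Ugp2, which makes the UDP-glucose used by the synthase, had 109, 114, 127 and 116 CPM in EV, against 209, 232, 307 and 226 CPM in CV. With both drugs the level was 113, 120.0, 149 and 152 CPM, against 195, 226, 219 and 280.5 CPM in CM. Neither pair overlapped (-1.06 ± 0.14, adjusted p = 1.58e-05; -0.79 ± 0.14, adjusted p = 0.000392). The branching enzyme gene Gbe1 fell in EV vs CV (-0.58 ± 0.19, adjusted p = 0.017), though library totals gave -0.10 and no call, and did not pass in EM vs CM (-0.20 ± 0.19).

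The 2 genes for glycogen-targeting subunits of protein phosphatase 1 differed. Ppp1r3b, the subunit most used in liver, had 38.7, 40.6, 35.7 and 40.6 CPM in EV, against 178, 147, 134 and 134 CPM in CV. EM replicates 1 to 4 gave 57.8, 73.6, 82 and 90.1 CPM, against 132, 132, 217 and 182 CPM in CM. Every EM library lay above every EV library and below every CM library (-1.93 ± 0.17, adjusted p = 3.67e-07 in EV vs CV; -1.13 ± 0.17, adjusted p = 9.29e-05 in EM vs CM). Ppp1r3c, a subunit known from muscle, fat and liver, had 14.8, 11.6, 10.5 and 9.46 CPM in EV, against 8.83, 12.4, 14.6 and 8.84 CPM in CV, with no call (0.06 ± 0.33, adjusted p = 0.905). Its EM vs CM difference (-1.01 ± 0.33, adjusted p = 0.0261) rested on CM replicate 3, at 36.3 CPM against 12 to 16.3 in the other CM libraries. Without that library it was -0.56 (adjusted p = 0.129), and the call was also lost without EM replicates 1, 2 or 3 (adjusted p = 0.0636, 0.0701 and 0.0768) and with library totals (-0.64, adjusted p = 0.111). Replicate number as a block (adjusted p = 0.0671) and a fit of only the groups compared (adjusted p = 0.0783) ended it too.

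All 3 fructose and sorbitol genes fell in EV vs CV, and 2 of them in EM vs CM, where 24.9% and 18.6% of all genes fell. Sord, the sorbitol dehydrogenase that makes fructose, had 207, 224, 250.1 and 209 CPM in EV, against 826, 990.4, 1072 and 1039 CPM in CV. Levels in EM were 299, 348, 457 and 434 CPM, against 862, 856, 1079 and 1060.5 CPM in CM. The groups lay far apart in both (-2.14 ± 0.14, adjusted p = 2.52e-08; -1.33 ± 0.14, adjusted p = 4.88e-06). Ketohexokinase Khk, which phosphorylates fructose, had 171, 187, 178 and 155 CPM in EV, against 610.0, 484, 370.4 and 492 CPM in CV. With MI763F and EE it stood at 244, 244, 274 and 242 CPM, against 372, 269.6, 381 and 494 CPM in CM. EV lay below every CV library (-1.5 ± 0.16, adjusted p = 2.63e-06), while EM replicate 3 lay above CM replicate 2 (-0.60 ± 0.16, adjusted p = 0.00856; with library totals -0.22, adjusted p = 0.28). Triokinase Tkfc, a later enzyme of fructose breakdown, fell in EV vs CV by 0.32 on the log2 scale with overlapping groups (adjusted p = 0.0448). That call was lost without any of CV replicates 1, 2 or 4 or EV replicates 1 or 4 (highest adjusted p = 0.137), also without CM replicates 1 or 4 or EM replicate 3, and with library totals (0.17). In EM vs CM it stood at 0.02 ± 0.12.

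Of the 4 pentose phosphate genes 3 rose in each comparison (75%, where 25.5% and 19.4% of all genes rose). G6pdx, the X-linked glucose 6-phosphate dehydrogenase that makes the first NADPH, had 11.8, 14.3, 10.4 and 10.7 CPM in EV, against 2.42, 2.67, 2.54 and 2.24 CPM in CV. The 4 EM values were 9.99, 10.6, 8.44 and 7.41 CPM, against 2.48, 3.72, 3.39 and 2.31 CPM in CM. It averaged 478% of the CV mean in EV (2.26 ± 0.17, adjusted p = 1.06e-07) and 305% of the CM mean in EM (1.61 ± 0.17, adjusted p = 6.06e-06). The G6pdx values rest on 924 and 688 estimated counts over the EV and EM groups, against 179 and 144 over the CM and CV groups. Pgd, the next dehydrogenase, had 98.9, 89.3, 80.2 and 82.2 CPM in EV, against 29.8, 36.2, 26.1 and 32.1 CPM in CV. The EM libraries held 82.9, 72.6, 67.9 and 70.9 CPM, against 26.4, 24.1, 31.2 and 35.1 CPM in CM. Neither pair overlapped (1.5 ± 0.13, adjusted p = 2.24e-07; 1.33 ± 0.13, adjusted p = 2.27e-06). Of the non-oxidative enzymes, transaldolase Taldo1 rose in both (0.42 ± 0.092, adjusted p = 0.0013; 0.55 ± 0.092, adjusted p = 0.000261) and transketolase Tkt did not pass (0.25 ± 0.16; 0.24 ± 0.16).

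The genes that rose did so in the same libraries as markers of other cell types. Of 13 macrophage markers 11 rose for EV vs CV, and 12 for EM vs CM. Of 11 lymphocyte and neutrophil markers in the table (12 listed) 8 and 5 rose. Their sum was 145 to 284 CPM in EM and 187 to 275 in EV, against 51.1 to 96.4 in CM and 27 to 55.7 in CV. All 5 erythrocyte markers in the table (6 listed) rose in both. Their sums were 1807 to 4017 CPM in EM and 2527 to 3469 in EV, against 841 to 1370 in CM and 984 to 1967 in CV. Of 11 sinusoidal endothelial markers 7 and 3 rose, with sums of 279 to 374 CPM in EM and 348 to 388 in EV, against 201 to 309 in CM and 152 to 311 in CV. The 3 rises in EM vs CM (27.3% of these markers) lay near the 19.4% of all genes, and the EM and CM sums overlapped. Of 4 cholangiocyte markers in the table (7 listed) 2 rose in each comparison and 1 fell in EM vs CM. Their sums were 84.2 to 189 CPM in EM and 131 to 197 in EV, against 54.4 to 77.2 in CM and 40.4 to 57.5 in CV. Stellate markers gave 4 rises and 1 fall of 12 in each (41.7% called, against 50.4% and 38.1% of all genes), with overlapping sums. Only 2 of 9 listed pancreatic acinar markers were in the table, and 1 of them rose in each comparison, with overlapping sums. None of these markers was at 0 throughout CV. Hepatocyte markers fell in 10 of 12 cases in EV vs CV and in 9 in EM vs CM, and 1 rose in each. The part of these shifts in the rises and falls of the glucose genes was not tested.

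Rgs16 had the largest change of the 31. The protein shortens signalling by G protein coupled receptors, and in mouse liver its transcript is known to respond to feeding and glucose. It had 0.789, 0.0972, 0.604 and 0.893 CPM in EV, against 253, 233, 112 and 218 CPM in CV, and 1.82, 2.2, 6.31 and 1.56 CPM in EM, against 144, 119.8, 176 and 285 CPM in CM. EV held 0.292% of the CV mean and EM 1.64% of the CM mean, with no overlap. The EV values came from 17, 2, 10 and 17 estimated counts, against 1624 to 3697 in CV, so the fold change (-8.41 ± 0.61, adjusted p = 1.18e-07) is approximate. The EM values came from 29 to 142 counts, against 1869 to 5427 in CM (-5.90 ± 0.52, adjusted p = 2.08e-06). Leaving out single libraries gave -8.68 to -8.05 and -6.61 to -5.59.

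**Figure D3:**
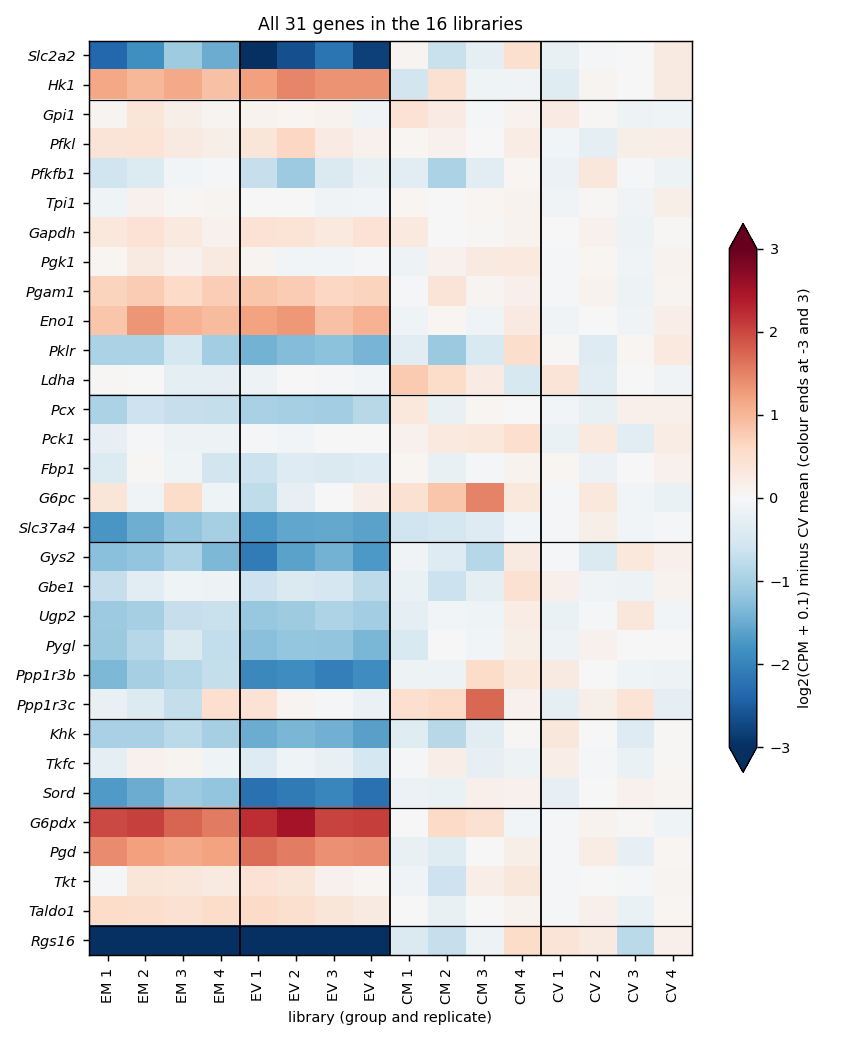
Log2(CPM + 0.1) of each gene (rows, in the order of the roles) in each library (columns) minus its mean over the CV libraries; red is higher, blue lower, and colours end at -3 and 3. The 8 libraries with EE share one pattern, blue for Slc2a2, Slc37a4, most glycogen genes, Khk, Sord and Rgs16 and red for Hk1, Pgam1, Eno1, G6pdx and Pgd, and the blue of Ppp1r3b, Gys2, Khk and Sord is paler in EM than in EV libraries.

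Across the 31 genes, the EE difference without MI763F and the one with it were alike in direction. They had the same sign for 26 genes, and Pearson's r was 0.97 across genes (Spearman's rho 0.89), or 0.92 without Rgs16, where all genes gave an r of 0.72 and 82.3% of the same sign. Genes are not independent replicates, and these values describe the 2 comparisons, which share no library but come from the same experiment. In all 16 genes were called in both, each in 1 direction, which is 69.6% of the calls in EV vs CV and 88.9% of those in EM vs CM. The difference was closer to 0 with MI763F for 26 of the 31 genes, and for 66.6% of all genes.

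Without EE, no gene of the 31 passed the test for MI763F (edgeR; 5 of 31 at an unadjusted p under 0.05, and 10.5% of all genes), and DESeq2 and limma called 0 as well, where 0.0929% of all genes were called. The differences ran from -0.39 to 0.84. G6pc had 243, 318, 497 and 221 CPM in CM, against 173, 223, 168 and 156 CPM in CV (0.83 ± 0.26, adjusted p = 0.263). CM replicate 3 was highest and 2 other CM libraries also lay above all CV libraries. Ppp1r3c (0.84 ± 0.33, adjusted p = 0.378) was highest in the same CM library. Slc37a4 was the only gene whose groups did not overlap, at 122, 129.9, 142 and 174 CPM in CM against 180.2, 209.9, 175 and 181 CPM in CV (-0.39 ± 0.14, adjusted p = 0.328), where 4.13% of all genes did not overlap.

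With EE, MI763F raised Sord and Ppp1r3b. These were the 2 of 31 genes called in EM vs EV (6.45%), where 1.69% of all genes were called (1.51% up). Sord had 299, 348, 457 and 434 CPM in EM, against 207, 224, 250.1 and 209 CPM in EV (0.79 ± 0.14, adjusted p = 0.0093). The EM mean was 39.2% of the CV mean. Ppp1r3b had 57.8, 73.6, 82 and 90.1 CPM in EM, against 38.7, 40.6, 35.7 and 40.6 CPM in EV (0.96 ± 0.17, adjusted p = 0.0094), and its EM mean was 51.3% of the CV mean. Both calls were lost without EV replicate 1 (adjusted p = 0.0564 for each) and without EV replicate 2 (0.052 for Sord, 0.0522 for Ppp1r3b), and that of Ppp1r3b also without EM replicate 4 (adjusted p = 0.0524). No gene was then called without EV replicates 1 or 2, and 4 were called without EM replicate 1, Slc2a2 and Pygl being added. DESeq2 called 6 genes, adding Slc2a2, Pygl, Khk and Rgs16, and limma 3, adding Rgs16.

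Other genes lay higher in EM than in EV without passing. Slc2a2 had 38.2, 54.9, 94.5 and 69.8 CPM in EM, against 18.9, 31.8, 43.2 and 28.3 CPM in EV, with overlap (1.08 ± 0.3, adjusted p = 0.0923). Rgs16 had 1.82, 2.2, 6.31 and 1.56 CPM in EM, against 0.789, 0.0972, 0.604 and 0.893 CPM in EV, with none (2.34 ± 0.62, adjusted p = 0.0813), and without EM replicate 3 its difference was 1.63 (adjusted p = 0.278). The groups were also apart for Pklr (0.49 ± 0.26, adjusted p = 0.463), Gys2 (0.52 ± 0.22, adjusted p = 0.316), Pygl (0.48 ± 0.14, adjusted p = 0.108) and Khk (0.54 ± 0.16, adjusted p = 0.118), all higher in EM, and for Hk1, lower in EM (-0.31 ± 0.2, adjusted p = 0.56). Together with Sord and Ppp1r3b that makes 8 of 31 genes with groups apart, where 10.5% of all genes had this. The median difference over the 31 was 0.21, and library totals lowered it to 0.10. Over the 12 hepatocyte markers the median was 0.23 in the same comparison, with 10 above 0 and 1 called, and their part in the differences of these genes was not tested.

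Whether the MI763F difference itself depended on EE was tested as an interaction. None of the 31 genes passed (edgeR), where 0.132% of all genes were called. At an unadjusted p under 0.05 there were 12 of the 31, and 13.6% of all genes. The nearest were Sord (0.82 ± 0.19, adjusted p = 0.0786) and Khk (0.91 ± 0.23, adjusted p = 0.0923). DESeq2 called 5, Slc37a4, Ppp1r3b, Khk, Sord and Rgs16, and limma 0. One was called without CM replicate 4 (Khk, 1.06, adjusted p = 0.0338), and 2 without EM replicate 1 (Sord, 0.92, adjusted p = 0.0216, and Slc37a4, 0.79, adjusted p = 0.0385). A larger MI763F difference with EE than without is therefore not shown for any of these genes by the edgeR test on all libraries.

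Other genes of the same pathways also changed with EE. Of 97 listed, 94 were in the table, and 42 fell and 20 rose in EV vs CV (66%, against 50.4% of all genes), or 24 and 41 with library totals. Among called genes above a low floor of expression, with groups that did not overlap, the largest falls included those of Aldoc, Onecut1 and Thrsp. The changes were -2.76 ± 0.43 for Aldoc, an aldolase known from brain, and -2.63 ± 0.63 for the hepatocyte transcription factor gene Onecut1. Both were low in EV, Aldoc at 1.93 to 3.15 CPM and Onecut1 at 0.578 to 3.14 CPM. For the lipogenic regulator Thrsp the change was -2.01 ± 0.72. The call of Thrsp was lost without any of 6 single CV or EV libraries, with library totals and with replicate number as a block. In EM vs CM edgeR called Aldoc (-1.45, adjusted p = 0.0114), but not Onecut1 (-1.10, adjusted p = 0.166) or Thrsp (-0.10, adjusted p = 0.93). Mlxipl (-1.39 ± 0.14), the glucagon receptor gene Gcgr (-0.90 ± 0.086) and the coactivator gene Ppargc1a (-1.76 ± 0.3) also fell, and in EM vs CM too (-0.91, -0.66 and -1.57). Foxo1 did not pass (0.07 ± 0.1), though library totals gave 0.55 (adjusted p = 0.000559).

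The largest rises chosen in the same way included those of Pdk4, Pkm and Hk3. Pdk4, a kinase that switches off pyruvate dehydrogenase, averaged 41.2 ± 16 CPM in EV and 5.35 ± 2 CPM in CV (2.95 ± 0.63, adjusted p = 0.00145), but 28.2 ± 17 CPM in EM and 22.9 ± 21 CPM in CM (0.30 ± 0.57, adjusted p = 0.722). CM replicate 2 held 54.2 CPM, against 8.04 to 16.4 in the other CM libraries. EM replicate 2 held 53.2 CPM, against 14 to 25.6 in the other EM libraries. Leaving out single libraries gave -0.20 to 1.18 in EM vs CM, with no call. In CM vs CV DESeq2 called Pdk4 (2.11, adjusted p = 0.0323). The pyruvate kinase gene of other tissues, Pkm, averaged 55.2 ± 8.9 CPM in EV and 12 ± 4 CPM in CV (2.20 ± 0.26, adjusted p = 5.2e-06), and 36.3 ± 7 CPM in EM and 15.9 ± 5.2 CPM in CM (1.19 ± 0.25, adjusted p = 0.00159). Hk3, a hexokinase of blood cells, rose by 1.84 ± 0.38 and 2.01 ± 0.38 (adjusted p = 0.000882 and 0.00078), from low levels of 1.35 to 7.79 CPM in CV and 2.24 to 3.85 CPM in CM. Pkm and Hk3 rose in the libraries with the higher macrophage, leukocyte and erythrocyte sums given above, whose part in these rises was not tested either. In EM vs CM 33 of the 94 fell and 17 rose (53.2%, against 38.1%), or 16 and 33 with library totals.

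With EE, MI763F raised 2 of the 94 (2.13%, near the 1.69% of all genes called), the mitochondrial pyruvate carrier genes Mpc1 and Mpc2, which are named after their values were seen. Mpc1 averaged 210 ± 27 CPM in EM and 150 ± 3.8 CPM in EV (0.48 ± 0.1, adjusted p = 0.0285), and Mpc2 203 ± 10 CPM in EM and 141 ± 8.4 CPM in EV (0.53 ± 0.11, adjusted p = 0.0346). Neither call held with library totals, and both were lost without any single EV library or EM replicates 2, 3 or 4 (highest adjusted p = 0.124 and 0.131). Without EE none of the 94 was called by edgeR (15 at an unadjusted p under 0.05, where 10.5% of all genes were), 0 by limma and 3 by DESeq2.

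**Figure D4:**
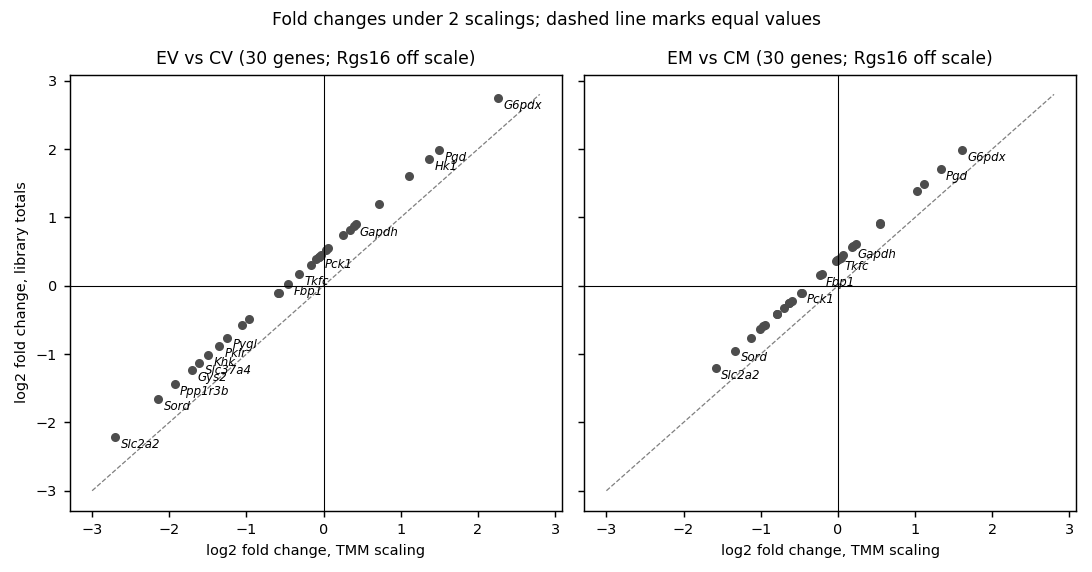
Log2 fold change of 30 of the genes with TMM scaling (x axis) and with library totals (y axis) in EV vs CV (left) and EM vs CM (right); Rgs16 is off the scale and the dashed line marks equal values. All points lie above the line by about the same amount, so genes near 0 such as Pck1, Fbp1 and Tkfc cross 0 in EV vs CV while Slc2a2, Sord and Ppp1r3b stay below it and Pgd and G6pdx above it.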

How the data were processed

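Liver messenger RNA was measured in 16 libraries, 4 per group. The authors deposited 1 table of estimated counts, whole numbers for 13006 Ensembl gene IDs. Per the submitters' processing notes, STAR and Salmon were used with the GRCm39 build (versions, annotation and strand setting not stated there). The kit named in the labels' protocols has no molecular identifiers. In genes with a 0 in some library, the smallest deposited value above 0 had a median of 95 in 171 genes under 200 bases and of 1 in 49 genes over 4000 bases, so short genes appear rescaled by length, and count noise is then misstated for them. Symbols were found for 12692 IDs in the gene table given with the data, which is of an earlier build.

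The members and gene lists were chosen with earlier results of these data known. Counts were fitted with edgeR 4.0.16 (R 4.3.3) in its quasi-likelihood form with TMM factors, 1 coefficient for each of the 4 groups and 12 residual degrees of freedom. A gene was called at a Benjamini-Hochberg adjusted p under 0.05 over 12918 genes. The 5 comparisons were EV vs CV, EM vs CM, CM vs CV, EM vs EV and the interaction. Values after ± beside a log2 fold change are approximate SE, and CPM means carry the SD. Each SE was worked back as the size of the change over the square root of its F statistic. Library values are given for genes called with groups that did not overlap and a log2 fold change of at least 1 in size, for genes called in another comparison, and for the 3 genes Ppp1r3c, G6pc and Pck1, chosen after their values were seen. Alternatives were RLE factors, library totals, the table without a low-count filter or with at least 1 CPM required in 8 libraries, DESeq2 1.42.0, limma 3.58.1, only the groups compared, replicate number as a block, and leaving out each library. The tests were first tried on simulated counts. Some genes that the naming rule chose are not reported here.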

Additional observations from a re-analysis of the deposited data

Results flagged for a closer look

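In EM, replicate 3 stood apart from the other EM libraries for 3 genes. Pklr had 76.8 CPM there, against 53.6 to 57.4 CPM in the others. Khk had 274 CPM, against 242 to 244 CPM. Rgs16 had 6.31 CPM, against 1.56 to 2.2 CPM. In each case the gap to the nearest library exceeded Dixon's 95% limit for 4 samples. These are 3 of 124 gene and group combinations examined, where chance gives about 1 in 20. Without this library the EM vs EV difference of Rgs16 was 1.63 on the log2 scale, against 2.34 with it.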

How the results depend on the processing

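The EE counts were stable in number but not in direction. Called members numbered 22 to 24 in EV vs CV and 17 to 21 in EM vs CM over the alternatives, and 20 to 23 and 17 to 20 with single libraries left out; called other pathway genes numbered 56 to 64 and 42 to 53 with single libraries left out. Library totals shifted all genes upward and reversed 7 values, Tpi1 (0.42), Pgk1 (0.45), Pck1 (0.42), Fbp1 (0.02) and Tkfc (0.17) in EV vs CV and Gpi1 (0.37) and Tpi1 (0.36) in EM vs CM. The MI763F counts depended on the test. In EM vs EV members called were 2, but 6 with DESeq2 and 0 to 4 with single libraries left out, and other genes called were 2, but 6 with DESeq2, 1 with library totals (a lower gene) and 0 to 8 with single libraries left out. In CM vs CV DESeq2 called 3 other genes, and single libraries left out gave 0 to 1. In the interaction DESeq2 called 5 members, the replicate block 1 (Sord, 0.80, adjusted p = 0.0252), and single libraries left out 0 to 2. The cause of these shifts was not tested beyond the construction of each alternative. Same-numbered libraries did not deviate together (r from -0.0524 to 0.0957 over 24 pairs, against -0.146 to 0.0919 for libraries of different number). No pairing by number was seen, but these correlations cannot exclude a batch shared by some libraries. The block changed the calls of 5 single-gene results by their side of the threshold. Over all alternatives, single-gene results kept their side of the threshold in 5336 values, while 76 lost and 62 gained a call, the reversed values included. Limiting the interaction to the groups compared is no other fit, since it uses all 4. Rgs16 and Hk1 rest on few counts, and Rgs16 in EV on 46 estimated counts in all. G6pdx was low without EE, with 179 estimated counts over CM and 144 over CV.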

Other observations

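Ratios of a pair of genes inside a library do not depend on the scaling between libraries, and are given as log2 of the estimated counts plus 0.5 (mean ± SD, n = 4), with no test. G6pc over Slc2a2, the last enzyme and the carrier of glucose release, was 1.71 ± 0.6 in EM and 2.40 ± 0.35 in EV, against 0.72 ± 0.92 in CM and -0.14 ± 0.36 in CV. Hk1 over Slc2a2 was -3.89 ± 0.59 in EM and -2.52 ± 0.44 in EV, against -6.63 ± 0.84 in CM and -6.64 ± 0.12 in CV, so the EV and CV means lay 4.13 apart. Pck1 over Pklr, a gluconeogenic and a glycolytic enzyme that both act at phosphoenolpyruvate, was 5.11 ± 0.25 in EM and 5.71 ± 0.1 in EV, against 5.07 ± 0.6 in CM and 4.41 ± 0.47 in CV. Gys2 over Pygl, synthesis over breakdown of glycogen, was -1.60 ± 0.21 in EM and -1.67 ± 0.26 in EV, against -1.39 ± 0.5 in CM and -1.21 ± 0.38 in CV, with overlapping libraries. Ppp1r3c over Ppp1r3b was -2.99 ± 0.52 in EM and -1.76 ± 0.29 in EV, against -3.15 ± 0.56 in CM and -3.75 ± 0.48 in CV. G6pdx over Pgd was -3.02 ± 0.19 in EM and -2.90 ± 0.18 in EV, against -3.29 ± 0.51 in CM and -3.63 ± 0.21 in CV. Ratios of counts also carry gene length, so only differences between groups can be read from them.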
